A study of Drosophila melanogaster with 12 samples.

Results

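The zinc-finger transcription factor Shavenbaby (Svb) is encoded at ovo, and the comparison described here sets its activator form against its repressor form in the same cells. Of the 12 RNA-seq libraries in the series, 6 enter the contrast, 3 with the activator and 3 with the repressor, chosen by their labels. Cells were sorted from the posterior midgut (regions R3 to R5) of virgin Drosophila melanogaster females that were 9 days old. Flies had spent 3 days at room temperature and then 6 days at 29 °C, which inactivates the temperature-sensitive Gal80 repressor and lets esg-Gal4 switch on the UAS transgenes. Activator, repressor and control flies carried esg-Gal4, UAS-GFP/+ and 1 copy of tubGal80TS. Opposite tubGal80TS, activator flies (SvbACT) had the transgene UAS-SvbACT::GFP, repressor flies (SvbREP) had UAS-Svb3Kmut::GFP, and control flies, from a cross to Canton-S, had a wild-type chromosome. The control flies thus had the driver and no svb transgene, and their 3 libraries are given beside the contrast as levels without a test. The SvbACT, SvbREP and control groups therefore share the driver, GFP, Gal80 and the 6 days at 29 °C. The other 3 libraries of the series came from flies with UAS-SvbRNAi, an RNAi transgene against svb. They helped set the filter on low counts and the estimate of spread, and their levels are not given.

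The midgut epithelium is renewed by intestinal stem cells, which divide to give enteroblasts that mature into absorptive enterocytes and enteroendocrine precursors that mature into hormone-secreting cells. The transcription factor Escargot (esg), whose promoter region drives Gal4 here, is made in stem cells and enteroblasts, so the driver covers both progenitor types. Full-length Svb acts as a repressor until small peptides from the tal locus (also called polished rice) bring it to the E3 ubiquitin ligase Ubr3, after which the proteasome removes its N-terminal repression domain and leaves an activator. SvbACT stands for the processed form and SvbREP for a form that is not processed, its 3Kmut name referring to mutated lysines. In embryonic epidermis Svb is known for switching on genes for actin-rich cell extensions and cuticle, and in adult midgut for a part in stem cell maintenance and differentiation.

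Several features limit the model. Each library pooled a batch of more than 20 females, and the replicates were biological ones from different calendar days, as the design text of the series states. Because sorted cells were measured in bulk, fewer cells of a type and less RNA per cell cannot be told apart. Total counts were 4361322 to 6036911 in SvbACT libraries, 2965852 to 5786969 in SvbREP libraries and 5557969 to 6575392 in control libraries. Levels are given in CPM, in the order of replicates 1, 2 and 3. CPM is a gene's counts scaled by the total of its library times a TMM normalization factor. A level of 3 counts, the limit that a count of 0 allows, stood for 0.525 to 1.02 CPM in these 6 libraries. This floor covers counting error only.

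SvbREP replicate 3 stood apart from its group. On the first principal component of the 6 libraries, which held 47.7% of the variance, it lay at 14.3, against 43.6 and 41.5 for SvbREP replicates 1 and 2, and all SvbACT libraries lay between -37.1 and -30.8. It also took an extreme place on the second component (18.8% of the variance), at -45.1, where the other 5 libraries lay between -7.04 and 18.1. Some of the results below are therefore also given without this library, or with it as the lone SvbREP library. Genes and lists that carry no such remark can change in these fits as well. Of 196 named genes called in the contrast, 182 were also called without SvbREP replicate 3 and 108 with it as the lone SvbREP library, a fit that assumes it varies like the other groups.

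Progenitor markers were abundant in all groups. Over 7 progenitor markers the summed level was 11332 to 13719 CPM in SvbACT, 10777 to 12479 CPM in SvbREP and 11098 to 12791 CPM in control. None of the 7 was at 0 in any library, and the most abundant was hdc, at 6748, 5420.2 and 7017 CPM in SvbACT and 5589, 6013 and 7001 CPM in SvbREP. Markers of tissues around the gut were far less abundant. Summed levels were 6.08 to 25.7 CPM in SvbACT and 14 to 58.0 CPM in SvbREP for the hemocyte markers, and 7.18 to 14 CPM in SvbACT and 12.4 to 26.8 CPM in SvbREP for the fat body markers. For the tracheal markers they were 0.468 to 1.93 CPM in SvbACT and 3.50 to 8.52 CPM in SvbREP, where the groups did not overlap. The defining markers Hml and Yp1 were at or under 3.73 CPM in each of these libraries, and the part of these tissues in the results was not tested. No member of these 3 lists was called, out of 1, 2 and 2 tested. Of the Malpighian tubule markers none was tested. The visceral muscle list reached 344 to 407 CPM in SvbACT and 332 to 378 CPM in SvbREP through Mef2 alone, while its defining contractile genes Mhc, Mlc1, Mlc2, up, wupA and Tm2 were each at or under 8.15 CPM in these libraries. One of its 5 tested members, wupA, was called, at 6.78, 5.88 and 4.38 CPM in SvbACT and 0, 0 and 1.40 CPM in SvbREP, and it lost that call in 9 of 20 alternatives.

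Levels of the locus of the overexpressed factor did not differ detectably between the groups. The ovo gene (FBgn0003028, chromosome X, 5048273 to 5070929) gave 2058, 2268 and 2084 CPM in SvbACT, 2086, 2175 and 2213 CPM in SvbREP and 0.746, 11.5 and 0.483 CPM in control. On the log2 scale, SvbACT over SvbREP came to -0.01, with an SE of 0.364 and an edgeR adjusted p of 0.989, and the libraries of both groups overlapped. Counts per gene do not separate transgene from endogenous transcript, and they do not measure protein. Ubr3, the ligase that starts Svb processing, was at 298, 306 and 297 CPM in SvbACT and 321, 362 and 316 CPM in SvbREP, without a call (log2 fold change -0.15, edgeR adjusted p = 0.419). The tal locus, source of the peptides that trigger the processing, was not analysed here. A noncoding gene that overlaps ovo on the opposite strand did differ. lncRNA:CR44833 (chromosome X, 4956646 to 5063868, minus strand), which shares 15596 bp with the ovo span, was at 4.91, 1.42 and 2.45 CPM in SvbACT, 90.3, 43.2 and 30.1 CPM in SvbREP and 3.17, 1.97 and 2.73 CPM in control (log2 fold change -4.23, SE 0.451, edgeR adjusted p = 8.76e-06). All SvbREP libraries were above all SvbACT and control libraries. Strand use in the counting is not given in the sources used here, so reads of this gene and of ovo cannot be told apart where they overlap.

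Of 7992 genes tested, 13.1% were called at an edgeR adjusted p under 0.05, 6.51% higher in SvbACT (520 genes) and 6.63% lower (530 genes). Over 2-fold, 3.05% of genes were higher in SvbACT and 3.22% lower. The groups of 3 did not overlap, with SvbACT above, for 14.5% of all genes tested, and with SvbACT below for 13.4%. These shares are the background for every count of list members that follows. The median log2 fold change over all genes tested was 0.00300. Without SvbACT replicate 1 there were 342 lower calls. Of 201 named genes with a position, 62 overlap another gene of the table, br, piwi, mfr, unc-5, cher, Mmp1, PGRP-LB, Mcm7, Itpr, Treh, per, wb, Zasp52, ATPsynbeta and Gdh among them, and reads of the overlapping stretches cannot be told apart without strand.

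**Figure D1:**
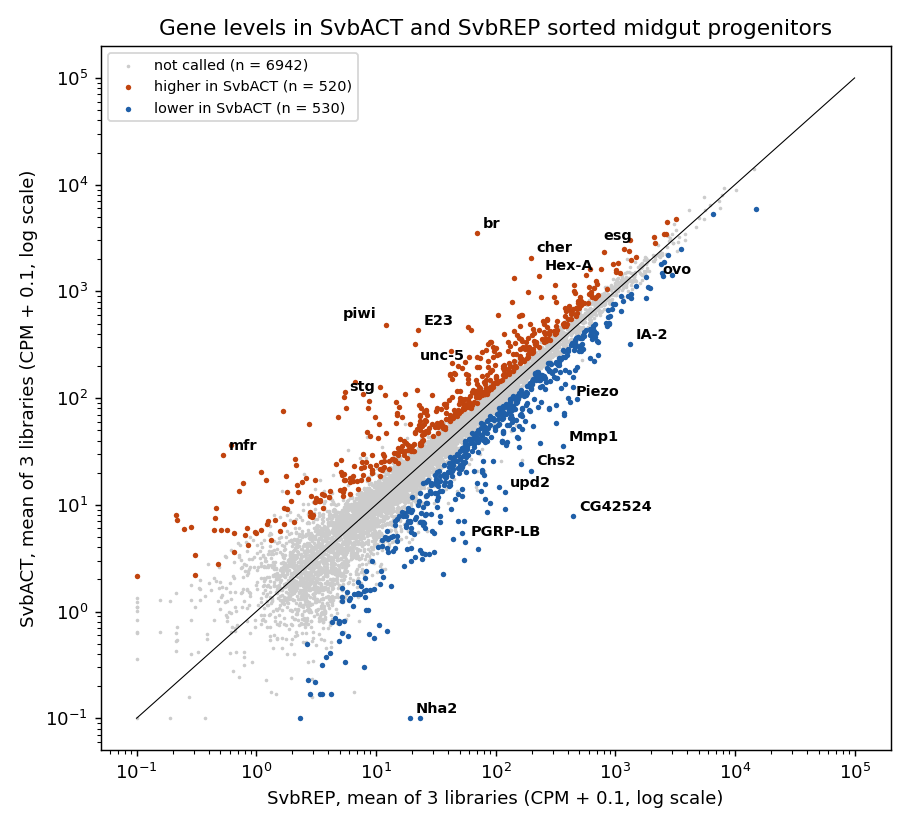
Mean level of every gene tested in SvbACT (vertical axis) against SvbREP (horizontal axis), both as CPM + 0.1 on log scales, means of 3 libraries. Orange points are the 520 genes called higher in SvbACT, blue points the 530 called lower, grey points the rest, and the line marks equal levels. ovo lies on the line, while br, piwi and stg stand above it and CG42524, Mmp1 and Nha2 below it.

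Control cells usually lay between the overexpressing groups for the genes that differed. On log2(CPM + 1) means, of the 520 genes higher in SvbACT the control level lay between the groups and nearer SvbACT for 173 (33.3%), between them and nearer SvbREP for 255 (49.0%), beyond SvbACT for 6.92% and beyond SvbREP for 10.8%. For the 530 genes lower in SvbACT it lay between and nearer SvbACT for 148 (27.9%), between and nearer SvbREP for 245 (46.2%), beyond SvbACT for 2.83% and beyond SvbREP for 23%. Over all genes tested the shares were 20.7% between and nearer SvbACT, 20.7% between and nearer SvbREP, 30.2% beyond SvbACT and 28.4% beyond SvbREP. Choosing genes that differ between the outer groups favours a control level between them, so these shares are descriptions.

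The gene with the greatest fitted difference among those higher in SvbACT was mfr (misfire), a gene known for a function in sperm. It had 131, 149 and 153 counts in SvbACT (30.6, 30.2 and 26.8 CPM), against 3, 1 and 0 counts in SvbREP and 0 CPM in each control library. Because the SvbREP libraries were at or under 3 counts, the size of its fitted log2 difference (6.32, SE 0.667, edgeR adjusted p = 5.93e-05) depends on the prior count of the fit. The same holds for GstT4, a theta-class glutathione S-transferase, with 39.7, 24.9 and 43.3 CPM in SvbACT and 3, 0 and 3 counts in SvbREP, and for Dhc36C, a dynein heavy chain, with 14.5, 17.8 and 15.2 CPM in SvbACT and 2, 3 and 3 counts in SvbREP. Transcripts of these genes were at or under the floor in SvbREP and clearly counted in each SvbACT library. In control GstT4 was at 2.80, 10.4 and 5.63 CPM.

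Genes that were abundant in SvbACT and low in SvbREP included several regulators. The Cdc25 phosphatase string (stg, FBgn0003525, chromosome 3R, 29251826 to 29255800), which removes the inhibitory phosphate from Cdk1 and so starts mitosis, was at 119, 97.3 and 92.5 CPM in SvbACT, 1.70, 5.22 and 9.10 CPM in SvbREP and 13.6, 10.0 and 16.9 CPM in control (log2 fold change 4.16, SE 0.355, edgeR adjusted p = 9.06e-07). All 3 SvbACT libraries lay well above every SvbREP and control library. The netrin receptor unc-5 (chromosome 2R, 15340472 to 15368300) was at 280.4, 353 and 327 CPM in SvbACT, 20.4, 25.0 and 17.9 CPM in SvbREP and 43.5, 75.4 and 61.6 CPM in control (log2 fold change 3.93, SE 0.204). For roughest (rst), an immunoglobulin-domain adhesion protein, the levels were 117, 136 and 85.8 CPM in SvbACT, 1.02, 7.15 and 8.23 CPM in SvbREP and 41.4, 58.9 and 42.5 CPM in control (log2 fold change 4.26, SE 0.415). Its binding partner hibris (hbs) went the other way, at 1.40, 1.62 and 1.93 CPM in SvbACT and 7.47, 19.5 and 13.1 CPM in SvbREP (log2 fold change -3.0, SE 0.485, edgeR adjusted p = 0.000536). SvbACT and SvbREP did not overlap in either adhesion gene, which the rule for naming the largest differences required. The filamin cheerio (cher, chromosome 3R, 17091533 to 17125389), an actin crosslinker, reached 2003, 2258 and 1929.8 CPM in SvbACT, against 144, 238 and 205 CPM in SvbREP and 889, 1118 and 942 CPM in control (log2 fold change 3.40, SE 0.177, edgeR adjusted p = 3.52e-09). Control libraries were thus above SvbREP and below SvbACT for cher.

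Other genes completed the list of the largest rises, which admitted only genes with each SvbACT library above each SvbREP library. Their log2 fold changes were 5.59 for lncRNA:CR44953, 4.62 for CG43064, 4.39 for CG42747, 4.06 for the Werner-type exonuclease WRNexo, 3.95 for the ubiquitin ligase Rchy1, 3.8 for the 5′-nucleotidase gene NT5E-2 and 3.63 for the BTB-domain gene jim lovell (lov). lov rested on lower counts, with 4.41, 0.275 and 0.350 CPM in SvbREP. A pair of X-linked genes that lie close together was picked out after their values were seen. The phosphatidylinositol transfer protein gene rdgB (13762752 to 13779488) was at 146, 130.3 and 103 CPM in SvbACT, 11.9, 15.7 and 4.73 CPM in SvbREP and 12.1, 37.8 and 14.6 CPM in control. Beyond CtsB1 and CG11103 on the same arm, the diacylglycerol lipase gene inaE (13783714 to 13811493) was at 121, 84.7 and 114 CPM in SvbACT, 19.3, 8.52 and 7.35 CPM in SvbREP and 18.1, 22.9 and 15.1 CPM in control. Their log2 fold changes were 3.60 (SE 0.436) and 3.23 (SE 0.304). Both proteins act in the phosphoinositide cycle of fly photoreceptors, as does the phospholipase C norpA described below.

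In the opposite direction the greatest differences were at genes with 0 counts in SvbACT. The sodium/proton antiporter gene Nha2 (FBgn0263390, chromosome 3R, 22981459 to 22998528) had 0 counts in each SvbACT library, against 26.1, 17.3 and 14 CPM in SvbREP and 7.09, 2.87 and 5.47 CPM in control. Against a floor of 3 counts per library it was at least 31.3-fold lower in SvbACT (edgeR adjusted p = 4.68e-06). lncRNA:CR46123 likewise had 0 counts in SvbACT and in control, and 12.2, 20.9 and 37.3 CPM in SvbREP, at least 38.4-fold lower in SvbACT against the same floor (edgeR adjusted p = 0.000167). It lies within the span of Myo81F and was not called by DESeq2. CG42524 was counted in every library, at 10.3, 6.49 and 6.30 CPM in SvbACT, 446, 473 and 422 CPM in SvbREP and 14.9, 25.6 and 16.6 CPM in control (log2 fold change -5.88, SE 0.241). CG6330 was at 5.85, 1.62 and 3.85 CPM in SvbACT and 74.7, 81.7 and 59.0 CPM in SvbREP (log2 fold change -4.26), and CG7992, which overlaps CG7889, at 8.42, 12.8 and 5.95 CPM in SvbACT and 168, 108 and 80.7 CPM in SvbREP (log2 fold change -3.71). SvbREP was above SvbACT and control in every library for CG42524, CG6330 and CG7992. CG8740, CG3987 and the immunoglobulin gene beat-IIb were at or under 3.04 CPM in all SvbACT libraries, with log2 fold changes of -4.35, -4.05 and -4.02 that rest on few SvbACT counts (0, 3 and 6 for CG8740, and 4, 5 and 0 for beat-IIb).

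Next among the genes lower in SvbACT, matrix metalloproteinase 1 (Mmp1, chromosome 2R, 24671294 to 24688184), a protease of the extracellular matrix, was at 32.7, 48.9 and 24.9 CPM in SvbACT, 454, 402 and 249.8 CPM in SvbREP and 159, 154 and 200.4 CPM in control (log2 fold change -3.38, SE 0.259, edgeR adjusted p = 3.12e-07). The ADAMTS-type metalloprotease gene stall (stl) was at 6.55, 7.70 and 11.2 CPM in SvbACT, 105, 64.6 and 82.3 CPM in SvbREP and 22.9, 38.9 and 42.1 CPM in control (log2 fold change -3.29, SE 0.296). Both protease genes had control levels between those of the overexpressing groups. Chitin synthase 2 (Chs2), the enzyme that makes the chitin of the gut lining, was at 30.4, 14.2 and 17.5 CPM in SvbACT, 249.8, 198 and 146 CPM in SvbREP and 72.2, 74.9 and 81.2 CPM in control (log2 fold change -3.27, SE 0.289). The cytokine unpaired 2 (upd2), a ligand of the JAK/STAT receptor, was at 9.59, 21.3 and 8.41 CPM in SvbACT, 149.7, 148 and 59.5 CPM in SvbREP and 55.6, 61.8 and 64.3 CPM in control (log2 fold change -3.18, SE 0.378, edgeR adjusted p = 2.61e-05). SvbREP replicate 3 held the lowest upd2 level of its group, close to control, and lay above each SvbACT library, as the naming rule required. The amidase PGRP-LB, which degrades bacterial peptidoglycan, was at 5.14, 2.84 and 5.25 CPM in SvbACT, 48.9, 46.2 and 70.9 CPM in SvbREP and 20.5, 23.1 and 12.4 CPM in control (log2 fold change -3.65, SE 0.312).

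Other large differences on this side were log2 fold changes of -3.13 for nahoda, -3.11 for the actin-nucleation regulator Whamy, -2.98 for the calcium-activated potassium channel slowpoke (slo), -2.88 for the tetraspanin late bloomer (lbm), -2.87 for the Krüppel-like factor dar1, -2.85 for olf413 and -2.82 for the collagen Multiplexin (Mp). slo was at 11.2, 7.30 and 2.28 CPM in SvbACT and 63.1, 85.5 and 14 CPM in SvbREP, so SvbREP replicate 3 lay near the SvbACT range. The rule that named the largest differences required every SvbREP library, replicate 3 included, to lie beyond every SvbACT library. Agreement of replicate 3 in direction is thus no separate observation for these genes. With SvbREP replicate 3 as the lone SvbREP library the log2 fold change of slo was -1.08. The calcium channel subunit gene cac, picked after its values were seen, behaved similarly, at 21.3, 9.53 and 9.46 CPM in SvbACT and 99.5, 101 and 26.3 CPM in SvbREP (log2 fold change -2.50, and -1.02 with the lone library, edgeR adjusted p = 0.404). Others chosen in this way were glutamate dehydrogenase (Gdh) at 96.8, 99.1 and 95.4 CPM in SvbACT and 511, 434 and 479 CPM in SvbREP (log2 fold change -2.29), the Notch-modifying glycosyltransferase fringe (fng, log2 fold change -2.47) and the planar polarity gene prickle (pk, log2 fold change -2.44). For these 3 genes each SvbREP library lay above each SvbACT library.

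**Figure D2:**
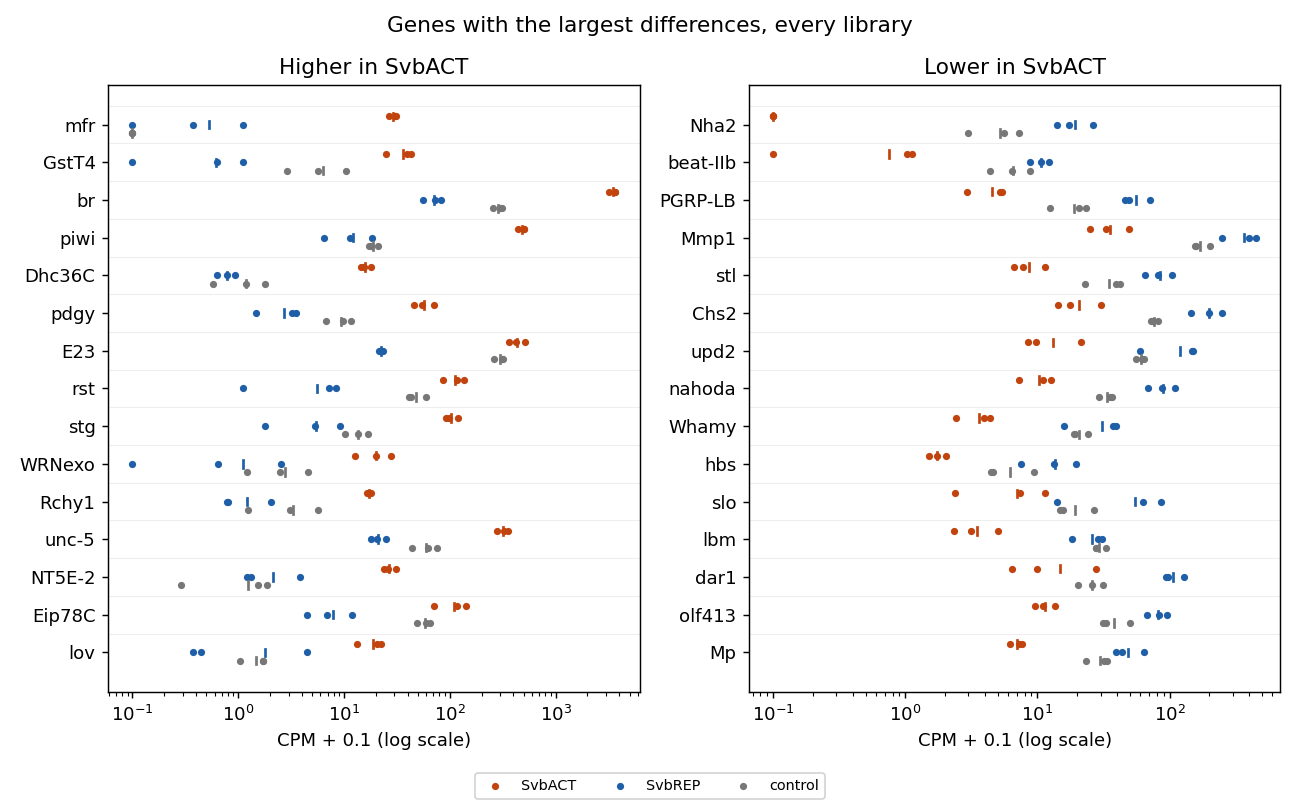
Level of the 15 genes with a symbol other than a number that had the largest differences in each direction, as CPM + 0.1 on a log scale. Each point is a library, each short bar a group mean, and SvbACT (orange), SvbREP (blue) and control (grey) run from top to bottom within a gene. The SvbACT and SvbREP points of a gene do not overlap, as the rule for choosing these genes required. For slo the nearest SvbREP library is replicate 3 at 14 CPM.

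DNA replication genes held many calls. Of 35 tested, 20 were called higher and 0 lower, or 57.1% against a background of 6.51%, and the median log2 fold change was 0.70. Summed levels were 1442, 1338 and 1176 CPM in SvbACT, 580, 613 and 689 CPM in SvbREP and 683, 767 and 589 CPM in control, so every SvbACT library was above every other. All 5 tested subunits of the MCM helicase, which unwinds DNA at the replication fork, were called, with a median of 1.96. Mcm7 was at 47.0, 52.7 and 45.2 CPM in SvbACT, 5.43, 11.3 and 8.23 CPM in SvbREP and 11.6, 14.9 and 9.81 CPM in control (log2 fold change 2.52, SE 0.247, edgeR adjusted p = 3.55e-06). double parked (dup), the Cdt1 protein that loads the helicase at origins, was at 58.9, 40.5 and 33.8 CPM in SvbACT and 8.83, 9.35 and 8.23 CPM in SvbREP (log2 fold change 2.33, SE 0.264). Both ribonucleotide reductase subunits, which make the nucleotides for replication, were called, and RnrL was at 93.8, 73.6 and 73.0 CPM in SvbACT and 26.8, 20.9 and 23.1 CPM in SvbREP (log2 fold change 1.77). Of the DNA polymerase and primase genes 4 of 5 were called, of the clamp and its loaders 2 of 5 (PCNA at 1.96 and Gnf1 at 0.59), of replication protein A 1 of 2, and of the origin recognition complex 1 of 3. Without SvbACT replicate 1 the list held 12 higher calls, and without SvbREP replicate 1 it held 13. None of the 4 GINS genes was called (median -0.0807, range -0.91 to 0.40).

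Fewer genes of mitosis passed the test. Of 46 mitosis and kinetochore genes 8 were higher and 0 lower (17.4%; median 0.25), led by Cyclin B (CycB), which activates Cdk1 for mitosis, at 74.1, 76.6 and 57.6 CPM in SvbACT, 18, 25.0 and 26.4 CPM in SvbREP and 33, 35.8 and 27.3 CPM in control (log2 fold change 1.57, SE 0.198). The others were mars, ncd, polo, barr, fzr, Klp10A and Top2, at 0.35 to 0.98. Of 25 cell cycle control genes 4 were higher and 0 lower (16%). These were stg, the checkpoint kinase loki (lok, log2 fold change 1.11), the Cdk inhibitor dacapo (dap, 0.63) and the E2F partner Dp (0.53), and with the replicate block 7 were higher and 1 lower. Without SvbREP replicate 3 the counts higher were 17 for replication, 11 for mitosis and 4 for control. With that library as the lone SvbREP library they were 8, 2 and 2. The mitosis count was 4 or 5 without SvbACT replicate 1 or 3 or SvbREP replicate 1 or 2.

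In sugar breakdown the calls were mostly higher in SvbACT and in the respiratory chain they were all lower. Of 11 enzymes that convert glucose to pyruvate 10 were called higher and 0 lower, with a median log2 fold change over the 11 of 0.62 and a range of 0.34 to 2.59. The first enzyme, hexokinase A (Hex-A, FBgn0001186, chromosome X, 9585675 to 9589813), was at 1556, 1091 and 1545 CPM in SvbACT, 259, 246 and 191 CPM in SvbREP and 363, 271 and 328 CPM in control (log2 fold change 2.59, SE 0.166, edgeR adjusted p = 4.55e-08). All 3 SvbACT libraries were far above all others, and SvbREP libraries were each below all control libraries. Trehalase (Treh), which splits the blood sugar trehalose into glucose, was at 367, 371 and 439 CPM in SvbACT, 138, 182 and 133 CPM in SvbREP and 315, 344 and 332 CPM in control (log2 fold change 1.37, SE 0.127). Gapdh1 was at 164, 158 and 159 CPM in SvbACT, 78.4, 76.2 and 75.8 CPM in SvbREP and 126, 142 and 153 CPM in control (log2 fold change 1.06, SE 0.108), with control nearer SvbACT. Glycogen phosphorylase (GlyP), which releases glucose from glycogen, was also higher (0.70), while glycogen synthase (GlyS) was lower (-0.65, lost in 7 of 21 alternatives). The 7 genes for pyruvate entry into mitochondria held 0 higher and 1 lower call, pyruvate dehydrogenase subunit Pdhb at -0.62 (edgeR adjusted p = 0.0467), which was lost in 12 of 21 alternatives. Over the whole list of 26 tested genes 12 were higher and 3 lower, or 57.7% called in either direction, with Gpdh1 (-0.56) the third lower call. Without SvbACT replicate 3 there were 11 higher and 0 lower calls, and without SvbACT replicate 1 or SvbREP replicate 1 there were 11 higher and 1 lower.

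Differences in nuclear genes for the respiratory chain and ATP synthase were small. Of 66 tested, 27 were called lower and 0 higher (40.9% against a background of 6.63%), with a median log2 fold change of -0.50, and 1 of them, the complex I subunit ND-30, exceeded 2-fold (-1.01, edgeR adjusted p = 0.00106). The lower calls comprised 8 of 32 complex I, 1 of 4 complex II, 3 of 9 complex III and 5 of 9 complex IV genes, and 10 of 12 genes of ATP synthase. Its catalytic subunit ATPsynbeta was at 470.2, 548 and 478 CPM in SvbACT, 874, 874 and 887 CPM in SvbREP and 784, 928 and 831 CPM in control (log2 fold change -0.82, SE 0.111, edgeR adjusted p = 0.000105). Summed over the list, levels were 4098, 4308 and 3934 CPM in SvbACT, 6400, 5827 and 6153 CPM in SvbREP and 6124, 6325 and 6118 CPM in control. Every SvbACT library was below every other, while SvbREP and control overlapped. Leaving out 1 library at a time gave 14 to 28 lower and 0 higher calls, with 14 without SvbACT replicate 1 or replicate 3, 17 without SvbREP replicate 1 and 20 without SvbREP replicate 3. Other large complexes showed few calls. Of 71 mitochondrial ribosomal protein genes 1 was lower (mRpL48, -0.98) and 0 higher, of 78 cytosolic ones 1 was higher (RpS3A, 0.58) and 0 lower, of 30 proteasome genes 0 were called, of 32 ribosome biogenesis genes 1 was lower (CG4038, -0.72), and of 17 V-ATPase genes 2 were lower (Vha100-1 at -0.75 and Vha68-2 at -0.39, the second lost in 11 of 21 alternatives). With the replicate block 4 cytosolic ribosomal protein genes were higher and 3 ribosome biogenesis genes lower.

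**Figure D3:**
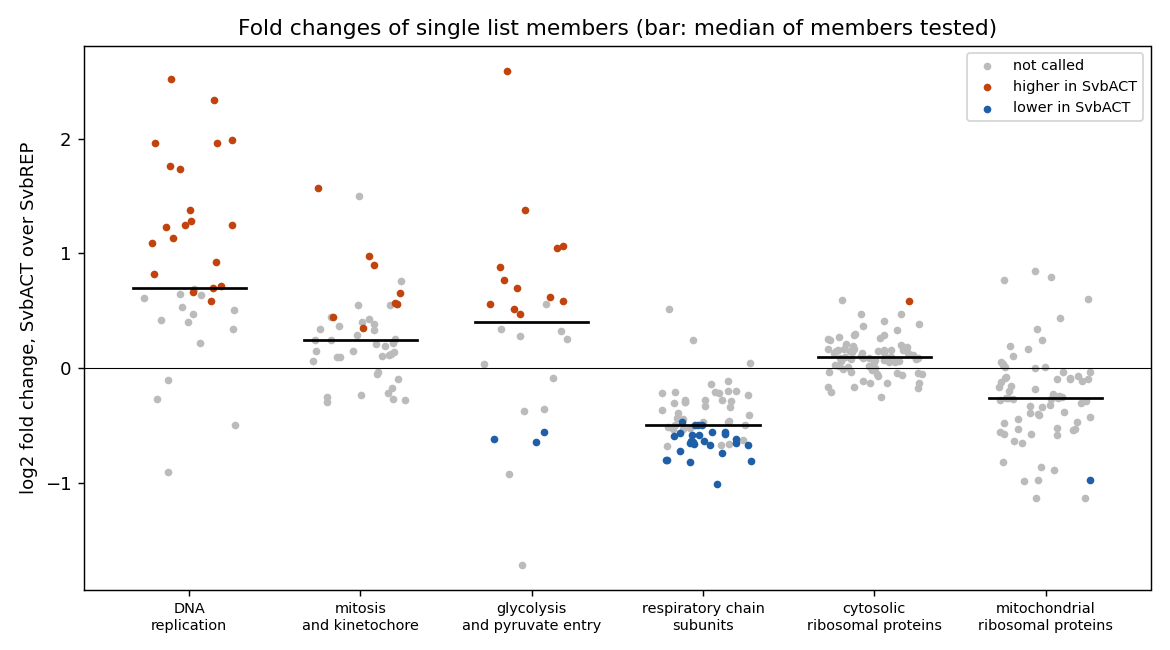
Log2 fold change of SvbACT over SvbREP (vertical axis) for each tested member of 6 gene lists, with 1 point a gene and a bar at the list median. Members called higher in SvbACT are orange, called lower blue, and not called grey. The replication median is 0.70 and the respiratory chain median is -0.50, with 20 orange and 27 blue points.

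Ecdysone-responsive genes were among the largest rises, though most of the list was not called. Of 22 tested, 3 were higher and 1 lower (18.2% called, against a background of 13.1%). The ABC transporter E23 (FBgn0020445, chromosome 2L, 3334875 to 3354829), itself induced by the steroid and known to dampen the response to it, was at 427, 363 and 516 CPM in SvbACT, 23.4, 21.4 and 22.1 CPM in SvbREP and 312, 264 and 316 CPM in control (log2 fold change 4.29, SE 0.157, edgeR adjusted p = 8.22e-11). The nuclear receptor gene Eip78C was at 117, 70.5 and 142 CPM in SvbACT, 4.41, 6.87 and 11.9 CPM in SvbREP and 59.3, 48.7 and 64.8 CPM in control (log2 fold change 3.74, SE 0.310). For both genes the SvbREP libraries were below all others, and for E23 the control libraries approached SvbACT. The zinc-finger gene broad (br), an early ecdysone target, was at 3644, 3175 and 3682 CPM in SvbACT and 82.8, 55.5 and 72.5 CPM in SvbREP, with control at 297, 256 and 313 CPM. The nuclear receptor Hr38 was the lower call, on 0, 1 and 0 counts in SvbACT, against 4, 24 and 11 counts in SvbREP (edgeR adjusted p = 0.0348), and it lost the call in 5 of 18 alternatives. Without SvbREP replicate 3, 5 members were higher and 1 lower, and with the replicate block 6 were higher and 2 lower.

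In the piRNA pathway, which silences transposons in the gonad, 3 of 19 tested genes were higher and 1 lower. piwi, the Argonaute protein at its centre, was at 501, 506 and 443 CPM in SvbACT, 18.3, 6.32 and 11.4 CPM in SvbREP and 21.1, 17.0 and 17.9 CPM in control. The other higher calls were nxf2 (log2 fold change 0.94, edgeR adjusted p = 0.0115) and tej (2.52, edgeR adjusted p = 0.0302), and neither was called with SvbREP replicate 3 as the lone SvbREP library. Hen1, the methyltransferase of small RNAs, was lower (-0.60). The other 15 tested genes of the pathway were not called.

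Of 24 calcium signalling genes tested 7 were higher in SvbACT and 1 was lower (33.3% called, against a background of 13.1%). The calcium channel gene cac (-2.50) and the calcium-activated channel gene slo (-2.98), both lower in SvbACT, were not on this list. The IP3 receptor Itpr, which releases calcium from the endoplasmic reticulum, was at 417, 427 and 436 CPM in SvbACT, 154, 142 and 133 CPM in SvbREP and 162, 204 and 159 CPM in control (log2 fold change 1.58, SE 0.113, edgeR adjusted p = 1.53e-07). Upstream of it the phospholipase C gene norpA was at 332, 249.9 and 304 CPM in SvbACT, 92.7, 103 and 109 CPM in SvbREP and 139, 123 and 134 CPM in control (log2 fold change 1.54, SE 0.119). The sodium/calcium exchanger Calx was at 434, 466 and 506 CPM in SvbACT and 158, 183 and 138 CPM in SvbREP (log2 fold change 1.56). All SvbACT libraries exceeded all SvbREP and control libraries for these 3 genes. CrebA, a bZIP factor of the secretory pathway listed here for its CREB domain, was at 222, 209 and 204 CPM in SvbACT, 59.1, 52.5 and 18.9 CPM in SvbREP and 206, 151 and 230.3 CPM in control (log2 fold change 2.32, SE 0.289), so control overlapped SvbACT. CanB2, NFAT and Stim, parts of store-operated calcium entry and calcineurin signalling, had log2 fold changes of 0.80, 0.57 and 0.50. The single lower call on the list was the mechanosensitive channel Piezo (chromosome 2L, 8163073 to 8190137). Its levels were 98.2, 80.5 and 97.7 CPM in SvbACT, 379, 409 and 469 CPM in SvbREP and 174, 249 and 187 CPM in control (log2 fold change -2.19, SE 0.151, edgeR adjusted p = 1.04e-07). In fly midgut Piezo is known to act in enteroendocrine precursors. Without SvbACT replicate 3 the list held 4 higher calls.

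Several genes that build actin filaments were higher in SvbACT, though the list as a whole did not lean that way, and motor genes went both ways. Of 37 actin cytoskeleton genes 6 were higher and 3 lower (24.3% called). The median log2 fold change was -0.07, and 16 of the 37 were above 0. The actin-nucleation regulator Whamy, lower at -3.11 as given above, was not on this list. The Arp2/3 subunit Arp2, which nucleates branched filaments, was at 379, 429 and 396 CPM in SvbACT, 124, 113 and 119 CPM in SvbREP and 150.2, 156 and 147 CPM in control (log2 fold change 1.76, SE 0.117, edgeR adjusted p = 6.59e-08). The formin diaphanous (dia) was at 313, 345 and 349 CPM in SvbACT and 135, 112 and 132 CPM in SvbREP (log2 fold change 1.41), and the filament elongator enabled (ena) at 508, 468 and 507 CPM in SvbACT and 203, 211 and 168 CPM in SvbREP (log2 fold change 1.35). SvbACT and SvbREP did not overlap for any of these. The nonmuscle myosin heavy chain zipper (zip) was higher (0.56) while its regulatory light chain spaghetti squash (sqh) was lower (-0.38, edgeR adjusted p = 0.0318). The sqh call was lost in 6 of 21 alternatives. The myosins jaguar (jar, -1.25) and crinkled (ck, -0.91) were lower. The villin-like gene quail (qua) was the sixth higher call, at a mean of 7.04 CPM in SvbACT and 0.117 CPM in SvbREP.

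Cell adhesion and matrix genes divided, with 4 higher and 8 lower of 25 tested (48.0% called). Laminin subunits went in opposite directions. The alpha chain wing blister (wb) was at 179.6, 242 and 239.6 CPM in SvbACT, 574, 655 and 771 CPM in SvbREP and 668, 704 and 756 CPM in control (log2 fold change -1.60, SE 0.147, edgeR adjusted p = 1.78e-06), and the gamma chain LanB2 at 328, 342 and 339 CPM in SvbACT and 232, 203 and 208 CPM in SvbREP (log2 fold change 0.65, SE 0.124). Zasp52, a scaffold of integrin attachment sites, was at 78.3, 50.7 and 90.5 CPM in SvbACT, 395, 337 and 376 CPM in SvbREP and 318, 366 and 373 CPM in control (log2 fold change -2.33, SE 0.173). For wb and Zasp52 the control libraries lay with SvbREP. Of the fasciclins, Fas2 was higher at 946, 772 and 955 CPM in SvbACT and 309.6, 309 and 308 CPM in SvbREP (log2 fold change 1.53), while Fas3 was lower at 2.10, 2.64 and 2.98 CPM in SvbACT and 21.7, 12.6 and 16.6 CPM in SvbREP (log2 fold change -2.69). E-cadherin (shg, 0.48) and its binding protein p120ctn (0.59) were higher. Other lower calls were Mp, neurotactin (Nrt, -1.21), vinculin (Vinc, -0.70), the integrin subunit Itgbn (-0.52) and the integrin adaptor stck (-0.41). Without SvbACT replicate 1 the list held 5 lower calls. Among 20 septate junction and brush border genes 3 were higher (Cad87A at 1.80, l(2)gl at 0.78 and Nrx-IV at 0.40) and 1 lower (Gli at -2.63). The Nrx-IV call was lost in 16 of 21 alternatives, among them every one that left out an SvbACT or SvbREP library.

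Of 21 JNK and stress kinase genes 5 were lower in SvbACT, 2 were higher and 14 were not called, with a median log2 fold change of -0.0891. The lower ones were Mmp1, Ets21C (-1.52) and puckered (puc, -0.47), known as JNK targets, the AP-1 subunit kayak (kay) and the upstream kinase Mekk1 (-0.44). kay was at 1423, 1651 and 1429 CPM in SvbACT, 2349.7, 2625 and 2342 CPM in SvbREP and 2050.2, 2133 and 2350.2 CPM in control (log2 fold change -0.70, SE 0.106). The higher ones were the kinases hemipterous (hep, 0.83) and licorne (lic, 0.53), which act upstream of JNK and p38, and lic lost its call in 9 of 21 alternatives. Ets21C was at 38.1, 107 and 38.4 CPM in SvbACT and 215, 195 and 119 CPM in SvbREP. It lost its call in 4 of 21 alternatives, among them those without SvbACT replicate 1, SvbACT replicate 3 or SvbREP replicate 1. Of 15 apoptosis genes 4 were lower and 0 higher, comprising the caspases Decay, Dronc and Dcp-1 and the inducer hid. Decay was at 21.0, 24.7 and 17.0 CPM in SvbACT, 84.2, 68.2 and 76.8 CPM in SvbREP and 58.8, 60.4 and 62.7 CPM in control (log2 fold change -1.87, SE 0.206), and the other 3 were at -1.21 to -0.68. With SvbREP replicate 3 as the lone SvbREP library Decay alone was called, and without SvbREP replicate 1 the apoptosis list held 1 call. The JNK list held 2 lower calls without SvbACT replicate 1 and 3 without SvbACT replicate 3.

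Clock genes were lower in SvbACT for 7 of 17 tested, with 1 higher (47.1% called). period (per), which represses its own transcription, was at 28.5, 23.3 and 25.6 CPM in SvbACT, 104, 97.6 and 81.9 CPM in SvbREP and 80.2, 104 and 97.2 CPM in control (log2 fold change -1.87, SE 0.160, edgeR adjusted p = 9.18e-07). Control libraries lay with SvbREP. Its activator Clk (-0.78), the regulators vrille (vri, -0.49) and clockwork orange (cwo, -0.47), kay and the ion channels slo and Shal (-1.45) were lower as well. Without SvbACT replicate 2 or SvbREP replicate 1 there were 4 lower calls. The per kinase doubletime (dco) was higher (0.84). Hours of dissection are not given in the labels, and the part of the time of day in these values was not tested.

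In most signalling pathways other than these, calls in both directions occurred. The shares called were 26.1% for Wnt, 25% for BMP, 23.1% for insulin and TOR, 22.7% for EGFR and 21.1% for Hippo signalling. They were 16.7% for the E(spl) Notch targets and 7.69% for JAK/STAT signalling, against a background of 13.1%. In BMP signalling (2 higher, 2 lower of 16) the secreted BMP-binding protein crossveinless 2 (cv-2) was at 1051, 1142 and 1218 CPM in SvbACT, 281, 311 and 357 CPM in SvbREP and 169.6, 172 and 181 CPM in control (log2 fold change 1.84, SE 0.111, edgeR adjusted p = 2.48e-08), so both overexpressing groups were above control. The BMP signal transducer Mad was at 349, 266 and 387 CPM in SvbACT, 815, 572 and 747 CPM in SvbREP and 781, 665 and 743 CPM in control (log2 fold change -1.09, SE 0.149), and sog (0.55) was higher. With the replicate block the list held 3 higher and 4 lower calls. The heparan sulfate proteoglycan genes dally (-0.50) and dlp (-1.38), which shape the spread of secreted ligands, were both lower, with dlp at 81.8, 87.6 and 108 CPM in SvbACT and 219, 253 and 249 CPM in SvbREP. In Wnt signalling (2 higher, 4 lower of 23) the receptors divided, fz2 being higher (0.68) and fz lower (-1.50). The formin Frl was higher (0.39) and the ligand Wnt5 lower (-0.71). In EGFR signalling (3 higher, 2 lower of 22) the receptor Egfr (0.61), the ligand spitz (spi, 0.39) and the feedback phosphatase Mkp3 (0.97) were higher. The spi call was lost in 7 of 21 alternatives. The ligand vein (vn), at 39.0, 53.3 and 23.3 CPM in SvbACT and 104, 179 and 88.4 CPM in SvbREP (-1.68), and the effector pnt (-0.41) were lower. In JAK/STAT signalling upd2 was the single call of 13 tested, joined by 1 higher call with the replicate block. In Hippo signalling (2 higher, 2 lower of 19) the upstream proteins expanded (ex, 0.71) and kibra (0.40) were higher, Ack (-0.63) and Rassf (-0.41) lower. In insulin and TOR signalling (2 higher, 4 lower of 26) the amino acid transporter minidiscs (mnd) was at 10.8, 15.8 and 10.7 CPM in SvbACT and 59.1, 45.4 and 41.5 CPM in SvbREP (-1.96). S6k (-0.61), REPTOR (-0.60) and Thor (-0.58) were lower, and path (0.53) and rictor (0.46) higher. The rictor call was lost in 12 of 21 alternatives, and without SvbREP replicate 1 the list held 2 lower calls. Of 6 E(spl) Notch target genes 1 was lower, E(spl)mgamma-HLH at -1.30.

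**Figure D4:**
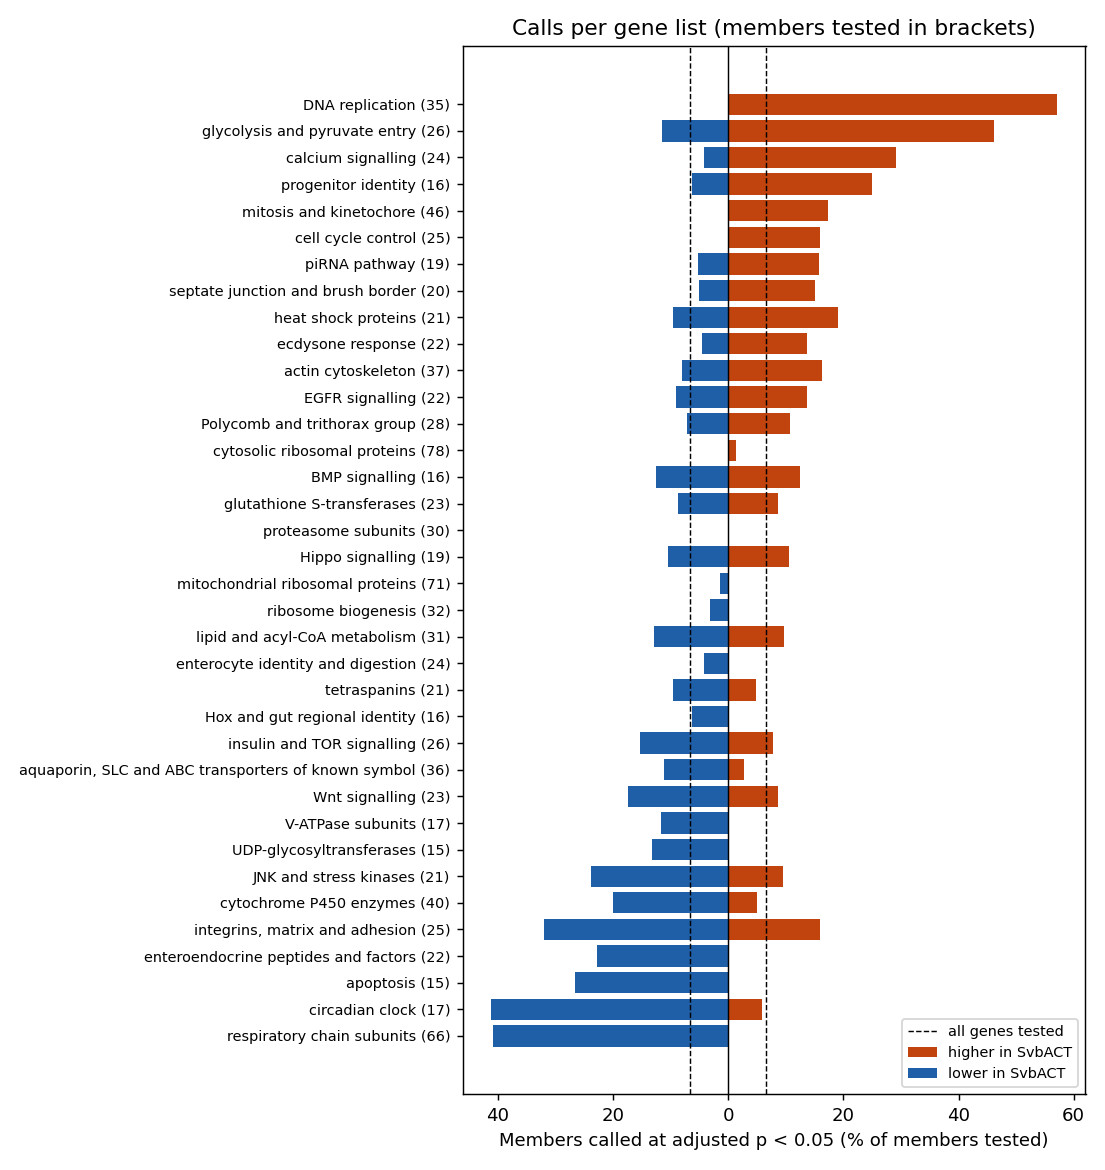
Share of tested members called higher in SvbACT (orange, to the right) and lower (blue, to the left), in percent, for each gene list with at least 15 tested members, whose number stands in brackets. Dashed lines mark the background of 6.51% higher and 6.63% lower. DNA replication reaches 57.1% higher and respiratory chain subunits 40.9% lower, while proteasome subunits show no bar.

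Progenitor genes were retained in both groups and 4 of 16 were higher in SvbACT, with 1 lower. esg itself was at 2474, 2139 and 2563 CPM in SvbACT, 1300.4, 1246 and 1329.5 CPM in SvbREP and 2172, 1873 and 2039 CPM in control (log2 fold change 0.89, SE 0.116, edgeR adjusted p = 6.51e-05). SvbREP libraries were below all others, while SvbACT and control overlapped. It was the single call among the 7 progenitor markers, joined by 1 more higher call with the replicate block. The gene whose promoter region drives Gal4 thus differed between the groups, while no difference was detectable for ovo. Others called were cher, zfh2 (0.72) and insc (0.45) as higher and pnt as lower. The stem cell ligand Delta (Dl) was at 1327, 830.3 and 1329 CPM in SvbACT and 1185, 999.7 and 1351 CPM in SvbREP and was not called.

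Enteroendocrine genes differed most between the SvbREP libraries themselves. Summed over 14 markers, the level was 848, 859 and 496 CPM in SvbACT, 2995, 3931 and 565 CPM in SvbREP and 444, 1266 and 394 CPM in control. SvbREP replicates 1 and 2 were above all others and replicate 3 lay within the SvbACT range. Of 10 markers tested 2 were called lower and 0 higher, the secretory granule protein IA-2 and the peptide hormone Tachykinin (Tk). IA-2 was at 354, 364 and 244 CPM in SvbACT, 1736, 1958 and 298 CPM in SvbREP and 159, 519 and 190.1 CPM in control (log2 fold change -2.05, edgeR adjusted p = 0.0309). Without SvbREP replicate 3 it was -2.53 (adjusted p = 0.00188), and with that library alone 0.07 (adjusted p = 0.979). Over the longer list of peptides and factors, 5 of 22 were lower and 0 higher, adding the synaptic genes Syt1 (-2.10) and cpx (-1.97) and the ion transport peptide ITP (-0.53). Without SvbREP replicate 3, 10 were lower. The median log2 fold change of this list was -1.24 in the main fit and 0.55 with replicate 3 as the lone SvbREP library. Hormone genes differed in level. Tk was at 44.4, 58.8 and 27.3 CPM in SvbACT and 207, 210.1 and 35.7 CPM in SvbREP, and NPF at 222, 313 and 153 CPM in SvbACT and 625, 788 and 154 CPM in SvbREP without a call, so SvbREP replicates 1 and 2 were the highest for both. AstA was at 0 in all SvbACT libraries and in SvbREP replicates 1 and 2, and CCHa1, CCHa2 and Dh31 were at or under 5.22 CPM in each SvbACT and SvbREP library. The part of enteroendocrine cells in results that rest on SvbREP replicates 1 and 2 was not tested.

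Few enterocyte genes passed the test, although most were above 0 on the log2 scale. Of 24 genes of enterocyte identity and digestion 1 was lower (the myosin Myo31DF, log2 fold change -0.45, edgeR adjusted p = 0.0393, lost in 7 of 21 alternatives) and 0 higher. The median log2 fold change was nevertheless 1.39, with 18 of 24 above 0, and for 10 of them each SvbACT library lay above each SvbREP library (background 14.5%). Most of these were digestive enzymes at low counts. The mannosidase gene LManVI was at 45.1, 65.1 and 18.7 CPM in SvbACT, 5.43, 8.25 and 11.2 CPM in SvbREP and 11.6, 129.9 and 9.17 CPM in control (log2 fold change 2.31, edgeR adjusted p = 0.172), and the protease Jon99Ciii at 6.55, 4.86 and 39.1 CPM in SvbACT, 2.04, 3.85 and 4.03 CPM in SvbREP and 5.97, 37.1 and 70.9 CPM in control. Neither was called, and control libraries ranged widely. Summed enterocyte markers were 452 to 569 CPM in SvbACT, 512 to 714 CPM in SvbREP and 435 to 951 CPM in control, and 1 of 11 tested markers, again Myo31DF, was called. Myo31DF made up most of the sum, at 379, 455 and 341 CPM in SvbACT and 528, 613 and 466 CPM in SvbREP, while over the 11 markers the median log2 fold change was 1.32, 7 were above 0 and for 4 each SvbACT library lay above each SvbREP library. With the replicate block 1 marker was higher and 2 were lower, and of the longer list likewise 1 and 2.

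**Figure D5:**
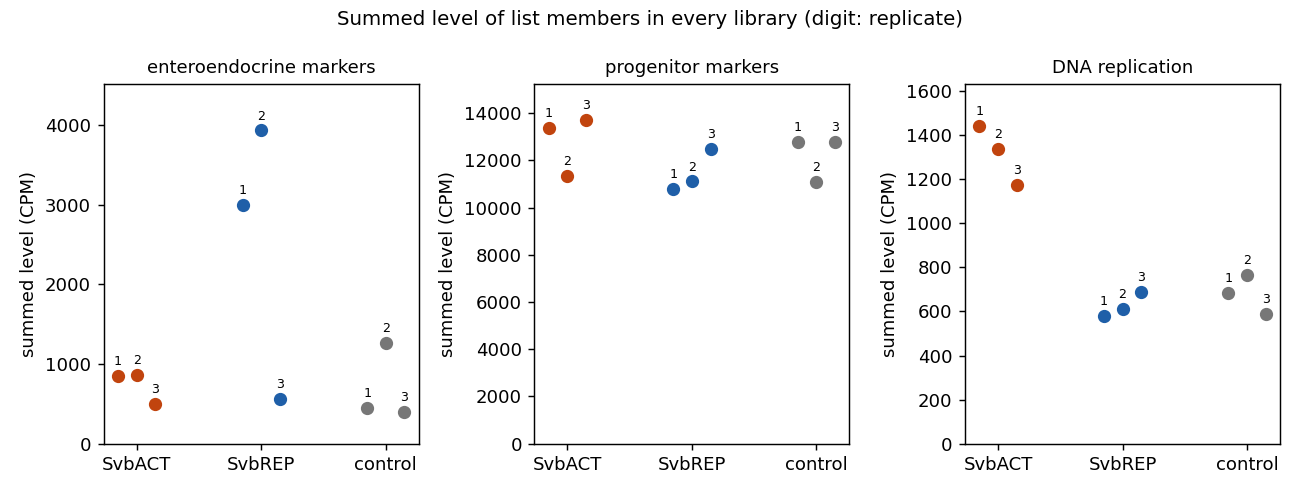
Summed level (CPM, linear axis from 0) of 14 enteroendocrine markers, 7 progenitor markers and the 35 measured DNA replication genes in each library, with the replicate number above each point and SvbACT, SvbREP and control from left to right. SvbREP replicates 1 and 2 reach 2995 and 3931 CPM for enteroendocrine markers and replicate 3 is at 565 CPM, while the 3 SvbREP libraries are within 580 to 689 CPM for DNA replication.

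Genes that Svb controls in embryonic epidermis gave little to compare. Of 33 listed, 8 passed the filter on low counts, and 1 was higher and 1 lower. The chitinase Cht10 was at 25.3, 16.4 and 26.4 CPM in SvbACT, 7.81, 9.90 and 5.78 CPM in SvbREP and 3.54, 4.84 and 3.70 CPM in control (log2 fold change 1.55, edgeR adjusted p = 0.0103), and the lower one was the myosin ck.

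Metabolic and detoxification families had calls on both sides. In lipid metabolism 3 of 31 were higher and 4 lower. The acyl-CoA synthetase gene pudgy (pdgy) was at 46.3, 71.6 and 55.0 CPM in SvbACT, 3.39, 1.37 and 3.15 CPM in SvbREP and 6.72, 11.6 and 9.65 CPM in control. Agpat4 was called higher at 1.17, 1.82 and 3.33 CPM in SvbACT and 0, 0.275 and 0.350 CPM in SvbREP, and it lost that call in 5 of 18 alternatives. The triglyceride lipase brummer (bmm) was at 92.6, 85.3 and 115.2 CPM in SvbACT, 176, 197 and 257 CPM in SvbREP and 208, 237 and 205 CPM in control (log2 fold change -1.11, SE 0.176), and GLaz (-1.04, lost in 8 of 21 alternatives), yip2 (-0.73) and whd (-0.52) were also lower. Of 40 cytochrome P450 genes 2 were higher (Cyp6a13 at 1.55 and Cyp6d5 at 1.00) and 8 lower, from -2.64 for Cyp28d1 to -0.52 for Cyp9c1, and 4 were lower without SvbACT replicate 1. Of 23 glutathione S-transferases GstT4 and GstD1 (0.60) were higher and GstS1 (-0.86) and GstO3 (-0.81) lower. Of the lower calls 0 were left without SvbREP replicate 2, and 1 without SvbACT replicate 1, SvbACT replicate 3 or SvbREP replicate 1. Of 15 UDP-glycosyltransferases 2 were lower (Ugt35A1 at -1.09 and Ugt302C1 at -0.96), and with the replicate block 2 were higher and 3 lower. Among 36 transporters 1 was higher (MFS3, 1.56) and 4 lower. The cotransporter Ncc69 was at 53.8, 76.0 and 34.3 CPM in SvbACT and 192, 185 and 243 CPM in SvbREP (log2 fold change -1.93), and the others were Oatp33Eb (-2.78), the water channel Prip (-1.41), which lost its call in 8 of 21 alternatives, and MFS14 (-0.51). With the replicate block 3 were higher and 6 lower. Of 21 tetraspanins 1 was higher (Tsp96F, 1.85, lost in 7 of 20 alternatives) and 2 lower (Tsp42El at -2.21 and Tsp42Ed at -0.72).

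Of 12 innate immunity genes the Imd pathway inhibitor pirk was higher, at 278, 198 and 258 CPM in SvbACT, 49.9, 59.1 and 70.5 CPM in SvbREP and 170.3, 131 and 150.1 CPM in control (log2 fold change 2.02, SE 0.164), and PGRP-LB, another brake on that pathway, was lower. Of 21 heat shock genes 4 were higher and 2 lower (28.6% called), and with the replicate block 6 were higher and 6 lower. The endoplasmic reticulum chaperone Hsc70-3 was at 1027, 894 and 749 CPM in SvbACT and 490.2, 555 and 469 CPM in SvbREP (log2 fold change 0.82), and the co-chaperone starvin (stv) at 180.3, 154 and 141 CPM in SvbACT and 445, 374 and 502 CPM in SvbREP (log2 fold change -1.48). Hsp67Ba (1.20), Hsp67Bc (0.73) and Hsp70Bc (0.69) were higher and Hsp60A (-0.61) lower, the last losing its call in 7 of 21 alternatives. Hsp70Bc belongs to near-identical copies whose reads the counting could divide, so its value is uncertain. Of 16 Hox and regional identity genes 1 was lower (bowl, -0.69), and with the replicate block 1 was higher and 2 lower. Of 28 Polycomb and trithorax group genes Pcl (0.43), brm (0.37) and ph-d (0.37) were higher and ash2 (-0.64) and jing (-0.63) lower, near the background of 13.1% at 17.9% called, and the ph-d call was lost in 19 of 21 alternatives. Without SvbREP replicate 1 there were 0 higher calls.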

How the data were processed

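Levels were measured by RNA-seq of sorted GFP-positive cells in 12 libraries, 3 for each of 4 groups, read as single reads of 100 nt. The deposited values are raw counts per gene, with no normalization by the authors, for 8802 genes. The submitters' processing notes name FastQC 0.11.5, STAR 2.5.2b, HTSeq 0.6.0, edgeR and the build dm6. Counting strand and gene selection are not given in the sources used here. Positions come from Ensembl release 115 (BDGP6.54), which matched 8686 of the gene identifiers.

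The test was edgeR 4.0.16 (R 4.3.3), a quasi-likelihood F test with TMM factors on 1 model of all 12 libraries, whose 4 groups (the other one svb RNAi) share the estimate of spread. filterByExpr (minimum count 10, total 15, proportion 0.7) left 7992 genes, over which Benjamini-Hochberg adjustment was made with a threshold of 0.05. The biological coefficient of variation was 22.9%. SE is the log2 fold change over the square root of F. CPM used the total over the tested genes of each library, times its TMM factor.

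Named genes were ovo, tal and Ubr3, the 10 largest log2 fold changes in each direction and the 15 largest among genes whose symbol is not a number (called, groups not overlapping, mean of at least 10 CPM in the higher group), and, per list, up to 5 called members in each direction by adjusted p, or 2 by level where none was called. Further called list members and others said to be so were named after their values were seen. The members and lists were chosen with earlier results of these data known. Replicate numbers come from the labels. Deviations of same-numbered libraries had correlations of 0.103, 0.126 and 0.199 between SvbACT and SvbREP. Differently numbered libraries were not compared in this way, and equal numbers are not stated to share a day. Whether the numbers pair the samples was thus not tested. The main fit had no block, and a fit with replicate as a block was an alternative. The code was tested on simulated data. DESeq2 1.42.0, other scalings, other filters and leaving out each library were alternatives. Promoter and protein sequences were not used here. Some genes that the naming rule selects are counted with their lists only or are not reported here.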

Additional observations from a re-analysis of the deposited data

How the results depend on the processing

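In total 1050 genes were called, 501 of them over 2-fold. With an adjusted p under 0.01 there were 552 calls, 287 higher in SvbACT and 265 lower, 329 of them over 2-fold. With SvbREP replicate 3 as the lone SvbREP library, an alternative chosen after seeing the data, there were 459 calls, 221 higher and 238 lower, 333 over 2-fold, and 3 named calls reversed, to log2 fold changes of 0.24 for Tk, 0.0650 for IA-2 and 2.88e-05 for Syt1. The uncalled Rpn2 (0.0473), srp (0.140) and apolpp (0.0153) changed sign in the same fit. Leaving out 1 library at a time gave 702 to 1143 calls, 360 to 536 higher, 342 to 630 lower and 396 to 627 over 2-fold, and log2 fold changes of -0.0692 to 0.00914 for ovo and -0.140 to 0.0488 for Rpn2, neither of them called. With the replicate block there were 1405 calls (693 higher, 712 lower, 569 over 2-fold), 1045 of them shared with the fit without it, and no named call was lost. With DESeq2 there were 1266 calls, and with the 6 libraries of the contrast alone 865. Of 196 named calls, 105 held under all alternatives run. The causes were not tested. Depth limits genes near 3 counts in a library. The alternative that searches promoters for a binding motif was not run.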

Other observations

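Called genes were not spread alike over the chromosome arms. On the X, 9.22% of 1367 tested genes were higher in SvbACT and 4.46% lower. The shares were 5.54% and 6.91% on 2L, 6.36% and 7.80% on 2R, 6.12% and 6.96% on 3L, and 5.31% and 6.78% on 3R, higher before lower. On chromosome 4, 10.4% of 67 tested genes were higher and 2.99% lower. These are descriptions without a test.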
